A study of Mus musculus with 6 samples.

Results

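The 10 genes described here encode enzymes that break down threonine, make and split serine and glycine, and carry the resulting one-carbon units on folate. They were chosen by symbol (Tdh, Gldc, Phgdh, Psat1, Psph, Shmt1, Shmt2, Mthfd1, Mthfd2 and Mthfd1l), all 10 were in the deposited table of 17912 genes, and all 10 passed the low-value filter of a mean of at least 10. The table came from poly(A) RNA of 6 mouse libraries whose labelled cell type is embryonic stem cells (ESCs, pluripotent cells of the early embryo). The labels give 3 wild-type controls, replicates 1 to 3, and 3 clones with a knockdown of EXOSC2 by a short hairpin RNA, clones 5 to 7. EXOSC2 belongs to the RNA exosome, a complex that degrades RNA from its 3′ end, and the design text of the series compares ESCs with these knockdown derivatives. The labels name no agent, strain, age or culture medium, and they do not say whether the controls carried a hairpin, whether the libraries came from separate cultures, or how the clones were derived. P-values therefore measure the spread between these libraries only, which may be technical.

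Mouse ESCs are known for a strong use of threonine. Threonine dehydrogenase (TDH) and its partner GCAT turn threonine into glycine and acetyl-CoA in mitochondria, and the glycine cleavage system, whose decarboxylase is GLDC, passes the second carbon of glycine to tetrahydrofolate. Serine, made from a glycolytic intermediate by PHGDH, PSAT1 and PSPH, gives up a carbon to folate through serine hydroxymethyltransferase, SHMT1 in the cytosol and SHMT2 in mitochondria. The mitochondrial enzymes MTHFD2 and MTHFD1L turn that unit into formate, which cytosolic MTHFD1 loads back onto folate for purine, thymidylate and methionine synthesis.

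Levels are read counts per gene scaled by the authors, given as mean ± SD over 3 libraries. Log2 fold changes are clones over controls of (scaled count + 1), with their SE. These libraries measure RNA only, so an enzyme said to fall or rise stands for its transcript. Enzyme amounts and flux through the pathways were not measured here. A gene was called when its Benjamini-Hochberg adjusted p from limma over all 15179 genes tested was under 0.05. By that rule 73.5% of all genes were called, 35.2% higher and 38.3% lower, so a call by itself separates a gene little from the rest. Reads summed over the 17912 genes of the table came to 21107761 to 26494985 per library. Exosc2 measured 2457, 2473 and 1954 in control replicates 1 to 3 and 1138, 997 and 981 in clones 5 to 7, so all clones lay below all controls (log2 fold change -1.14 ± 0.13, exact two-sided permutation p = 0.1, the smallest that 3 against 3 libraries allow). The ESC label was checked on 12 marker genes, all of which had reads in every control. In the clones 11 of them were lower, with a median log2 fold change over the 12 of -9.92 (-9.21 with genes without a read set to their bound against 3 reads per library), Zfp42 and Utf1 had no read, and Pou5f1 (OCT4) was higher, at 91114 ± 2227 against 21045 ± 4721. The means of 6 of the 12 lay under 3 in the clones (Nanog, Zfp42, Esrrb, Tdgf1, Utf1 and Lin28a), while Sox2 kept 2805 ± 787 of 11834 ± 2168 and Fgf4 1663 ± 87.2 of 3437 ± 703. The summed level of the list was 126296 to 137638 in controls and 93025 to 99232 in clones. Pou5f1 alone made up most of the sum in clones, so the sum does not describe the other markers. Of 11 epithelial markers tested 6 were higher and 5 lower. Krt6a had no read in controls and 3657 ± 636 in clones, and Ehf went from 1.69 ± 0.605 to 16997 ± 810, whereas Cdh1 (E-cadherin) fell from 15794 ± 3163 to 982 ± 257, Epcam from 5922 ± 256 to 1006 ± 189 and Grhl2 from 561 ± 86.1 to 13.2 ± 4.80. The summed level of the epithelial list was 27287 to 41880 in controls and 39291 to 44529 in clones. Of 12 fibroblast or feeder-cell markers tested 11 were higher in the clones and 1 lower, and their summed level was 10422 to 11451 in controls and 53207 to 69494 in clones. Among that list Vim rose from 4053 ± 387 to 27647 ± 2113 and Col1a1 from 2427 ± 261 to 12575 ± 4220. The lower one was Thy1, at 394 ± 12.0 in controls and 209 ± 29.5 in clones. Dcn was called higher but was low in both groups, at 8.83 and 28.0. Lum, at 2.29 and 4.56, was under the filter. No marker of that list was at 0 in all libraries of a group. Medians by chromosome ranged from -0.60 (chromosome 1) to 0.41 (chromosome 6). The part of these shifts in the enzyme levels below was not tested. In these bulk libraries fewer cells of a type and less RNA per cell cannot be told apart.

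Of the 10 enzyme genes 7 fell in the clones, 1 rose and 2 were not called, with a median log2 fold change of -1.14 against -0.07 for all genes tested. The 3 control and 3 clone values did not overlap for 8 of 10, where 77.3% of all genes tested showed no overlap. The share called, 8 of 10, was close to the share of all genes. The sizes differed widely within the pathway: Tdh and Gldc were nearly absent from the clones, Phgdh kept 3.46% of its control level and Shmt1 16.1%, Mthfd2, Mthfd1 and Psat1 kept 41.2%, 49.5% and 73.5%, and Shmt2, Psph and Mthfd1l stood at 102%, 109% and 125%.

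**Figure D1:**
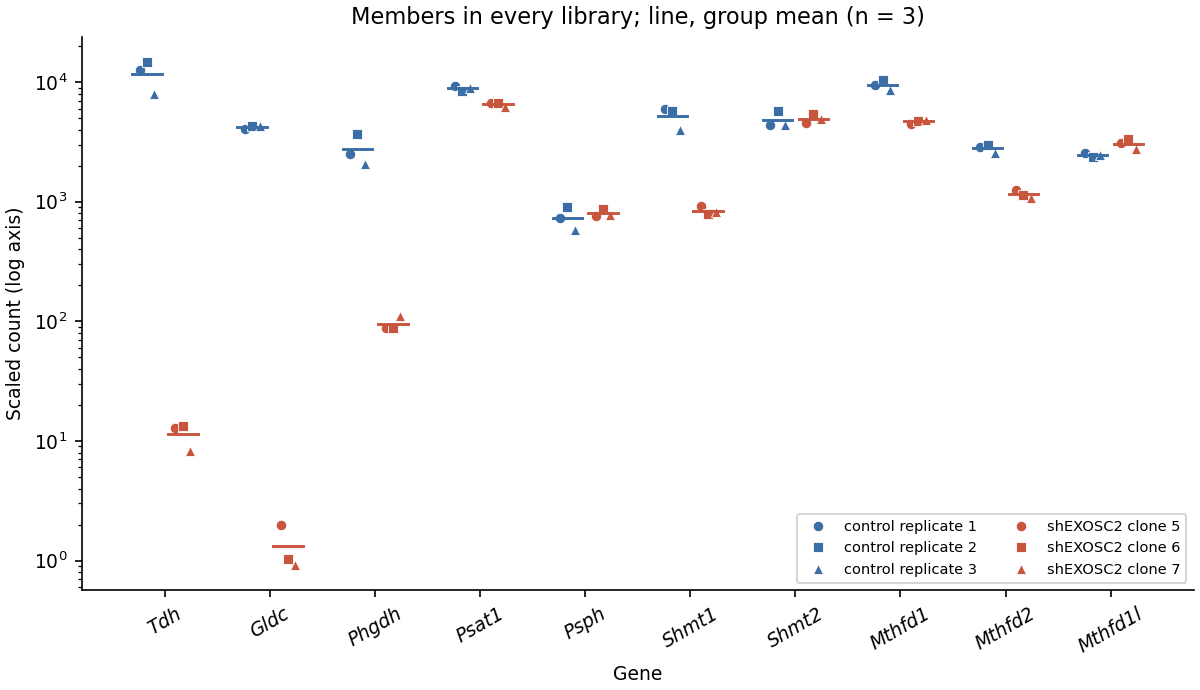
Scaled count of each of the 10 genes on a log axis, one point per library and a line at each group mean. Tdh and Gldc lie near 11.5 and 1.31 in the clones, Phgdh near 95.2, while the points of Shmt2 and Psph overlap between groups.

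Promoters are shown for 3 genes that fell by different amounts (Gldc, Phgdh, Mthfd1) and for Shmt2 and Mthfd1l, which did not fall, to let their sequences be read beside their values. They are examples only: Psph, which was not called, also holds the letters marked here, and its window lies largely in its own annotated exons and is not printed. The sequences are from RefSeq (GRCm38.p6), which held promoters for 9 of the 10 genes. Each run is the 250 bases before the annotated start, 5′ to 3′ on the gene's strand, shortened to 229 for Phgdh where a GENCODE exon of the gene begins. Capitals mark the letters CCAAT, the CCAAT box bound by NF-Y, which read ATTGG where they lie on the opposite strand. The runs lie at chr19:30175442-30175691 (minus strand), chr3:98339991-98340219 (minus), chr12:76254982-76255231 (plus), chr10:127522445-127522694 (minus) and chr10:3972825-3973074 (plus) in the order printed.
Gldc: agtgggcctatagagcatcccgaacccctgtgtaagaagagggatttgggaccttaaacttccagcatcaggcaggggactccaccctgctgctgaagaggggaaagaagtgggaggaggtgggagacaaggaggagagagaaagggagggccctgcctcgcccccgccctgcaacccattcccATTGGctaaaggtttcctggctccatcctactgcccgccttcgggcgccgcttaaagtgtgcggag
Phgdh: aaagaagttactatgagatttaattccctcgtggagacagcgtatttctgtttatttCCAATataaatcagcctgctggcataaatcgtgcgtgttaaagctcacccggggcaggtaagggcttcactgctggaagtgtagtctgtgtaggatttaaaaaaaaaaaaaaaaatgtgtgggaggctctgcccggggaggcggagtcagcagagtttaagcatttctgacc
Mthfd1: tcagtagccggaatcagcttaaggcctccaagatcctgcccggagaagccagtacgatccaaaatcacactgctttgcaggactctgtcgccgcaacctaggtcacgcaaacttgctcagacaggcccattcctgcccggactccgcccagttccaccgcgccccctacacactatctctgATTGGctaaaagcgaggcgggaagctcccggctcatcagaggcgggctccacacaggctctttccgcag
Shmt2: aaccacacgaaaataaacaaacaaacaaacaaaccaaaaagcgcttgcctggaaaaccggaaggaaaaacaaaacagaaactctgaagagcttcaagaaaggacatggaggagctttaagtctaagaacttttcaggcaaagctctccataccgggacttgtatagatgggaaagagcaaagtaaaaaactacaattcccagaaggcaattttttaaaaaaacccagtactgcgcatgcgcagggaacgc
Mthfd1l: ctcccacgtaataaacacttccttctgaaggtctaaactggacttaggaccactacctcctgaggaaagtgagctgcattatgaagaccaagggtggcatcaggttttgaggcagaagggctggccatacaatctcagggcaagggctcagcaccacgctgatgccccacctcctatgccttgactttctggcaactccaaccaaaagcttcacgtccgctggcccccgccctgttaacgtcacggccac

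The letters CCAAT occurred within 250 bases before a start in 7 of the 9 genes with a promoter, namely Gldc, Phgdh, Shmt1, Mthfd1, Mthfd2, Psat1 and Psph, and in neither Shmt2 nor Mthfd1l. Of 32536 distinct promoters of that length, 33.8% held them. Psat1 has 2 annotated starts and only the first carries the letters, Mthfd2 carries them 3 times, and Phgdh carries them 193 and 23 bases before its start, the latter split by the end of the printed run and so not marked. In Gldc the match lay 66 bases before the start and in Mthfd1 69, both on the opposite strand. The Mthfd1 window also holds an exon of the long noncoding RNA Gm47525. The other motifs searched, each on both strands, were the core TGATGNAA of the element bound by ATF4 with C/EBP factors (3.40% of promoters), the E-box CACGTG (6.04%) and the octamer ATTTGCAT bound by OCT4 (1.62%), and none was in these windows of the 9 genes. A match is a stretch of letters and not a measured site, and an absent match says only that these letters are not in the window.

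The transcript of the threonine step was the most abundant of the 10 per length in controls and was nearly absent from the clones. Tdh (ENSMUSG00000021953.14, chromosome 14, 63492347 to 63509092, minus strand, GRCm38) measured 12537, 14758 and 7940 in control replicates 1 to 3 and 12.9, 13.4 and 8.30 in clones 5 to 7. Control replicate 3 and clone 7 were the low libraries of their groups, and the highest clone lay far under the lowest control. The means were 11745 ± 3477 and 11.5 ± 2.80, and the clones held 35 reads in all. Their ratio was 1019, with a 95% counting interval of 732 to 1462. That interval covers only the counting error of the summed clone reads. It holds the control mean fixed and leaves out the spread between libraries. The labels name no molecular identifiers, so copies made by PCR may also be counted as reads. In limma the log2 fold change was -9.85 ± 0.26 (adjusted p = 3.2e-08), and 24 of the 15179 genes tested lay lower. Chromosome 14 as a whole had a median log2 fold change of -0.57, and Tdh stood at -9.27 with chromosome medians subtracted and at -9.26 with quantile normalization. The next enzyme of the route, Gcat, fell from 1362 ± 522 to 281 ± 73.3 (limma log2 fold change -2.24 ± 0.28, adjusted p 9.3e-05), so it kept 20.6% where Tdh kept 0.0982%.

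Gldc showed the lowest clone level of the 10. This decarboxylase of the glycine cleavage system (ENSMUSG00000024827.9, chromosome 19, 30098447 to 30175429, minus strand) measured 4016, 4278 and 4279 in the controls, a spread of 3.61% of the mean. In clones 5, 6 and 7 it had 2, 1 and 1 reads, or scaled counts of 1.99, 1.03 and 0.923. The ratio of the means, 4191 ± 151 and 1.31 ± 0.588, was 3191 with a counting interval of 1246 to 11713. With so few reads the fitted log2 fold change depends on the pseudocount, at -10.85 with 1, -11.22 with 0.5 and -9.38 with 5. It was -9.70 with quantile normalization, -11.54 with edgeR and -11.66 with DESeq2, and it passed in each case.

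The other parts of the glycine cleavage system did not move alike. Amt, the aminomethyltransferase that hands the carbon to folate, fell from 2348 ± 125 to 11.1 ± 4.44 (limma log2 fold change -7.67 ± 0.27, adjusted p 7.5e-08). Gcsh, the lipoyl carrier protein, fell from 3401 ± 1094 to 989 ± 53.3, a log2 fold change of -1.72. Dld, the dihydrolipoamide dehydrogenase shared with other mitochondrial complexes, rose from 2890 ± 280 to 3649 ± 7.24 (limma log2 fold change 0.34 ± 0.10, adjusted p 0.015), and that call was lost with quantile normalization (0.16) and without clone 5, 6 or 7 (0.34, 0.34 and 0.34). Of the 4 transcripts, those of the decarboxylase and the aminomethyltransferase were near absent in the clones, and that of the shared dehydrogenase was not.

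Among the serine synthesis genes the transcript of the first step fell, and those of the steps after it fell much less or not measurably. Phgdh (ENSMUSG00000053398.11, chromosome 3, 98313170 to 98339990, minus strand), which encodes the dehydrogenase that commits 3-phosphoglycerate to serine, measured 2506, 3680 and 2066 in controls and 87.5, 87.3 and 111 in clones. Control replicate 2 was high and clone 7 was the highest clone, and no clone came near a control. The means were 2750 ± 834 and 95.2 ± 13.4 (log2 fold change -4.80 ± 0.22, adjusted p = 2.4e-07 in limma), and 5.69% of all genes tested lay below Phgdh. A processed pseudogene of Phgdh is annotated, and reads from near-identical copies are uncertain. Psat1, the phosphoserine aminotransferase (chromosome 19, 15904678 to 15947337), measured 9256, 8483 and 8990 in controls and 6718, 6708 and 6222 in clones. Those groups were tight and did not overlap, with a log2 fold change of -0.44 ± 0.09 (adjusted p = 0.0022 in limma). Genes of chromosome 19 had a median of 0.35, and with chromosome medians subtracted Psat1 stood at -0.83.

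Psph, the phosphatase of the last step (chromosome 5, 129765558 to 129787449), measured 725, 895 and 581 in controls and 753, 876 and 780 in clones. The clones lay inside the control range. The log2 fold change was 0.15 ± 0.17 with a 95% interval of -0.24 to 0.54, so these libraries bound the change to between 0.848-fold and 1.45-fold but do not show equality. Psph shares 10.4% of its annotated exon bases with Cct6a on the other strand, and the sources used here do not state whether counting used strand. The enzymes of 1 short pathway therefore had log2 fold changes of -4.80, -0.44 and 0.15 in the same libraries. Pgam1, the phosphoglycerate mutase of glycolysis that draws on the same substrate as PHGDH, was not called (4343 ± 274 and 4280 ± 71.3, log2 fold change -0.02 ± 0.09, chosen here after its values were seen).

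**Figure D2:**
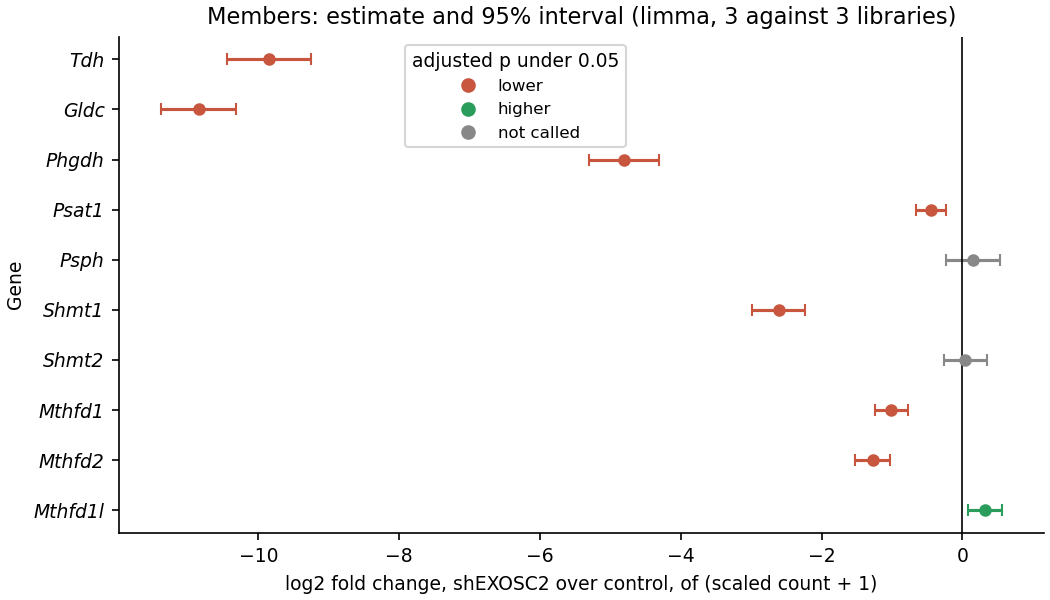
Log2 fold change of each of the 10 genes in the clones over controls, with its 95% interval from limma (3 against 3 libraries) and its call by colour. The intervals of Shmt2 and Psph include 0, Mthfd1l lies at 0.32, and Tdh and Gldc lie at -9.85 and -10.85.

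Of the hydroxymethyltransferase genes, that of the cytosolic enzyme fell and that of the mitochondrial enzyme was not called. Shmt1, the cytosolic enzyme (ENSMUSG00000020534.14, chromosome 11, 60788104 to 60811718, minus strand), measured 5976, 5768 and 3956 in controls and 920, 788 and 825 in clones, with control replicate 3 low. The log2 fold change was -2.61 ± 0.16 (adjusted p = 1.4e-06 in limma). Shmt2, the mitochondrial enzyme (ENSMUSG00000025403.4, chromosome 10, 127517123 to 127522444, minus strand), measured 4355, 5770 and 4357 in controls and 4562, 5367 and 4877 in clones. Its groups overlapped, and the log2 fold change of 0.04 ± 0.13 had an interval of -0.26 to 0.35. Within a library, Shmt2 counts were 0.729 to 1.10 times those of Shmt1 in controls and 4.96 to 6.81 times in clones. This ratio, which does not depend on how libraries are scaled, rose by 2.65 on the log2 scale.

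Among the folate interconverting enzymes, the cytosolic and the mitochondrial dehydrogenase both fell, and the mitochondrial formate synthetase did not. Mthfd1, the trifunctional cytosolic enzyme (chromosome 12, 76255298 to 76319803), measured 9430, 10408 and 8657 in controls and 4492, 4766 and 4848 in clones, a log2 fold change of -1.01 ± 0.10 (adjusted p = 2.5e-05 in limma). Mthfd2, the mitochondrial dehydrogenase and cyclohydrolase (chromosome 6, 83305691 to 83325908), measured 2884, 2979 and 2563 in controls and 1248, 1148 and 1079 in clones, a log2 fold change of -1.28 ± 0.11 (adjusted p = 8.9e-06 in limma). For both genes every clone was below every control and the spread was small in each group.

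Mthfd1l, which releases formate in mitochondria (chromosome 10, 3973118 to 4167081), measured 2541, 2346 and 2474 in controls and 3074, 3344 and 2780 in clones. All clones were above all controls, by a log2 fold change of 0.32 ± 0.10 (adjusted p = 0.022 in limma). That call was lost with quantile normalization (0.14), with chromosome medians subtracted (0.14), with eBayes without trend (0.32), without clone 5 (0.31) and without clone 6 (0.25). Mthfd2l, the paralog of Mthfd2 and not one of the 10, rose from 57.1 ± 9.67 to 329 ± 22.4 (limma log2 fold change 2.52 ± 0.20, adjusted p 5.5e-06). Within a library Mthfd2 counts were 39.3 to 64.1 times those of Mthfd2l in controls and 3.46 to 3.58 times in clones.

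Ratios within a library were compared for 9 pairs of neighbouring or matching enzymes. Counts are not corrected for length, so only the shift of a ratio between the groups is read. In all 9 the control and clone ratios did not overlap. Each had p = 0.1 in an exact two-sided permutation test, the smallest this design allows, and 0.1 after adjustment over the 9 pairs. Pairs of other genes were not examined, and 77.3% of all single genes tested showed no overlap, so the count of 9 is not particular to these pathways. The Mthfd1l/Mthfd1 ratio rose from 0.225 to 0.286 in controls to 0.574 to 0.702 in clones. Mthfd2/Mthfd1 moved least, with a log2 difference of -0.27 from a control mean of -1.76 ± 0.05 to a clone mean of -2.02 ± 0.16. The log2 ratio of Psat1 to Phgdh averaged 1.74 ± 0.48 in controls and 6.10 ± 0.26 in clones. That of Psph to Phgdh averaged -1.89 ± 0.13 and 3.07 ± 0.25. The ratio of Shmt1 to Tyms, which encodes the thymidylate synthase, was 2.79 to 2.96 in controls and 0.640 to 0.695 in clones. Tdh/Gcat and Gldc/Amt differed by -7.62 and -3.19 on the log2 scale, values that rest on few Tdh, Gldc and Amt reads in the clones and move with the pseudocount.

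**Figure D3:**
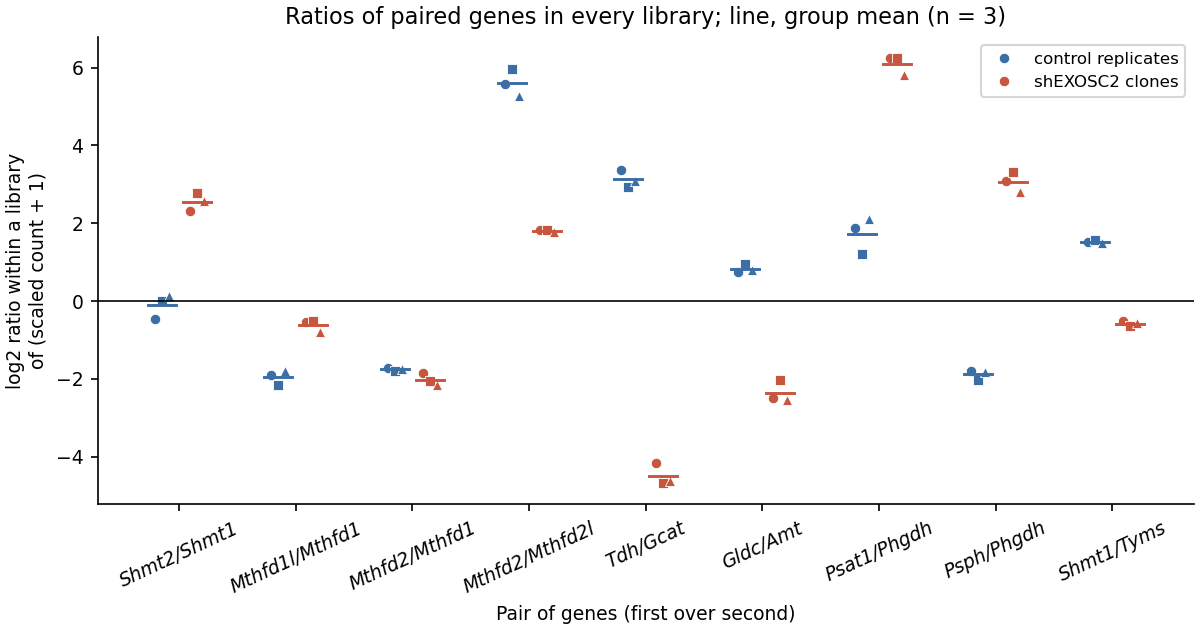
Log2 ratio of (scaled count + 1) of the first over the second gene of each pair, one point per library, with lines at the group means. Shmt2/Shmt1 lies at -0.11 in controls and 2.55 in clones, Mthfd2/Mthfd1 at -1.76 and -2.02.

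Per kilobase of annotated exon the order of the 10 changed. In controls it ran Tdh (4491 ± 1330 scaled counts per kb), Mthfd1, Psat1, Shmt2, Shmt1, Phgdh, Mthfd2, Gldc, Mthfd1l and Psph (169 ± 36.4). Over libraries the ranges of Mthfd1 and Psat1 overlapped, as did those of Shmt2 with Shmt1, Shmt1 with Phgdh, and Phgdh with Mthfd2. In clones Shmt2 (1588 ± 130) and Psat1 (1540 ± 66.6) came first with overlapping ranges, followed by Mthfd1, Mthfd1l, Mthfd2, Shmt1, Psph, Phgdh, Tdh and Gldc (0.216 ± 0.0966), none of which overlapped its neighbour. Gldc stood at 688 ± 24.8 per kb in controls, at rank 8 of the 10, above Mthfd1l at 553 ± 22.3 and Psph. The length used joins all annotated exons of a gene and is not that of a single transcript, so the order is approximate. Libraries varied more in controls than in clones for 8 of the 10 genes on the log2 scale, and control replicate 3 was the lowest control for 6. The shares over all genes were not counted, so neither count can be read as particular to these 10.

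**Figure D4:**
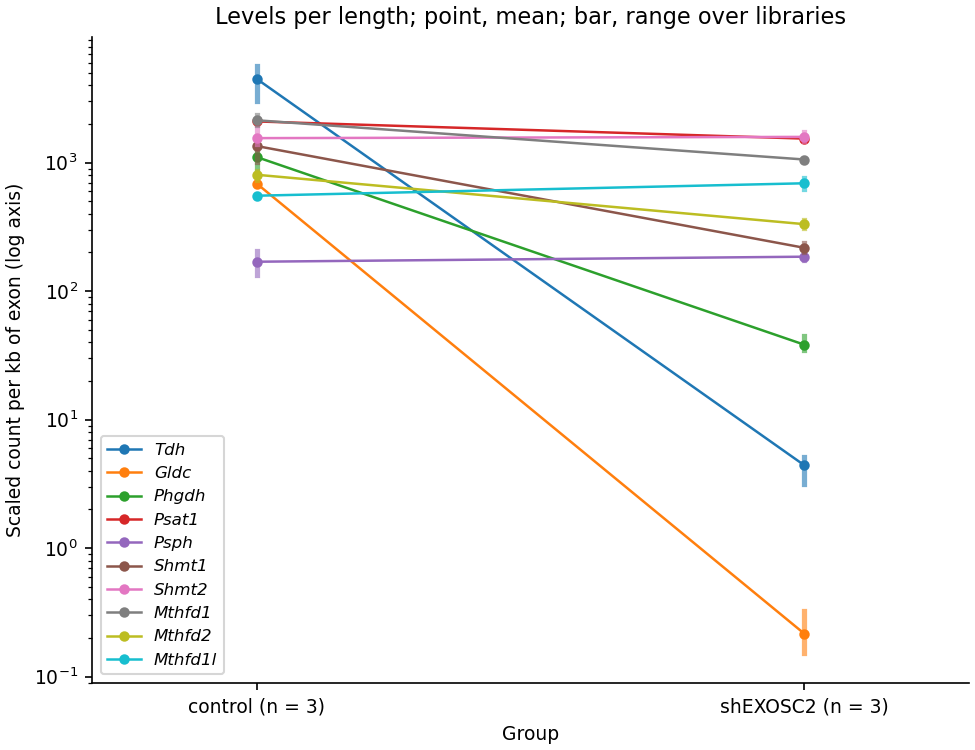
Mean scaled count per kb of exon of each gene in controls and clones on a log axis, with bars for the range over 3 libraries. The lines of Tdh, Gldc and Phgdh fall steeply, and those of Shmt2, Psat1, Mthfd1l and Psph stay nearly level.

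The genes around the 10 moved in both directions. A list of 76 further genes of these pathways had 66 in the table and 65 tested. Of those 29 rose, 27 fell and 9 were not called, with a median log2 fold change of -0.06 against -0.07 for all genes tested. The share called was 86.2%, where 73.5% of all genes tested were called, 35.2% higher and 38.3% lower. Counts for the parts of this list, here and below, are to be read beside those shares of all genes. Of the 9 tested genes of threonine and glycine catabolism 5 rose and 4 fell. Besides Gcat, Amt, Gcsh and Dld, the serine racemase gene Srr rose from 114 ± 49.8 to 263 ± 30.5. Alas1, which uses glycine to start haem synthesis, rose from 818 ± 36.6 to 2416 ± 190 (log2 fold change 1.56). Sdsl, a serine dehydratase-like gene, measured 6.63 in control replicate 1, at most 1.08 in the other controls, and 27.9, 45.2 and 23.1 in clones. Its rise passed with a log2 fold change of 3.33, which became 3.96 without control replicate 1, 2.26 with a pseudocount of 5 and 4.58 with quantile normalization. Gatm, which uses glycine for creatine synthesis, rose from 127 ± 15.9 to 186 ± 23.1, a call lost without control replicate 1 or 2 or clone 5 or 7 (0.53, 0.46, 0.45 and 0.57). Glyctk, a glycerate kinase, fell from 99.7 ± 14.1 to 47.1 ± 3.35, and did not pass with quantile normalization (-0.42).

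Of 13 tested one-carbon folate enzymes 7 fell, 4 rose and 2 were not called, with a median of -0.51. The purine synthesis enzymes that take formyl groups from folate both fell, Gart from 12376 ± 1331 to 4439 ± 73.3 (log2 fold change -1.47) and Atic from 9224 ± 1963 to 5207 ± 120 (-0.80). Atic lies on chromosome 1, with a median of -0.60, and did not pass with chromosome medians subtracted (-0.22). Tyms fell from 1814 ± 350 to 1257 ± 57.4, a log2 fold change of -0.51 that no longer passed without control replicate 1 (-0.40).

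Folate handling genes moved in opposite directions. Fpgs, which adds the glutamates that hold folate in the cell, fell from 1560 ± 568 to 907 ± 92.0, without passing when control replicate 1 (-0.75) or clone 5 (-0.64) was left out. Ggh, the hydrolase that removes those glutamates, rose from 318 ± 32.1 to 751 ± 34.7 (log2 fold change 1.24). Aldh1l1, the cytosolic formyltetrahydrofolate dehydrogenase, fell from 103 ± 23.6 to 5.57 ± 1.23, with 17 reads in the clones. Its log2 fold change of -3.97 moved to -3.33 with a pseudocount of 5 and -2.87 with quantile normalization. Its mitochondrial paralog, Aldh1l2, measured 111 ± 62.3 and 99.2 ± 26.3 with no call. Mthfs, which recycles 5-formyltetrahydrofolate, fell from 87.0 ± 17.1 to 37.1 ± 5.85, and did not pass with quantile normalization (-0.46). Mtfmt, the formyltransferase of mitochondrial initiator tRNA, rose from 321 ± 47.3 to 437 ± 27.5, a call lost with quantile normalization (0.33) and without control replicate 2 or 3 or clone 5, 6 or 7 (0.37 to 0.48). Mthfsd measured 380 ± 57.7 and 490 ± 25.5 with an adjusted p of 0.055 in limma, and passed with chromosome medians subtracted (0.86) and without control replicate 2 or 3 (0.46 and 0.42).

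Carriers of folate, serine and glycine rose in 10 of 15 tested cases and fell in 3, with a median of 0.50. Folr1, the folate receptor, fell from 743 ± 113 to 6.81 ± 3.35 (log2 fold change -6.68 ± 0.37). With 21 reads in all clones together, that value moved to -6.02 with a pseudocount of 5 and -5.97 with quantile normalization. Sfxn3, a mitochondrial sideroflexin, rose from 426 ± 83.5 to 5468 ± 392, and the glycine transporter gene Slc6a9 from 119 ± 8.85 to 547 ± 31.1. Genes of the methionine cycle and transsulfuration fell in 8 and rose in 5 of 14 tested cases, with a median of -0.47 that did not change with Dmgdh, which had no read in any clone, set to its bound against 3 reads per library. Mtr, the methionine synthase that takes the methyl group from folate, rose from 1103 ± 165 to 3368 ± 207 (log2 fold change 1.62). Cbs, which condenses serine with homocysteine, fell from 656 ± 74.9 to 45.8 ± 9.84, while Cth, the next enzyme toward cysteine, rose from 819 ± 70.5 to 7749 ± 294.

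**Figure D5:**
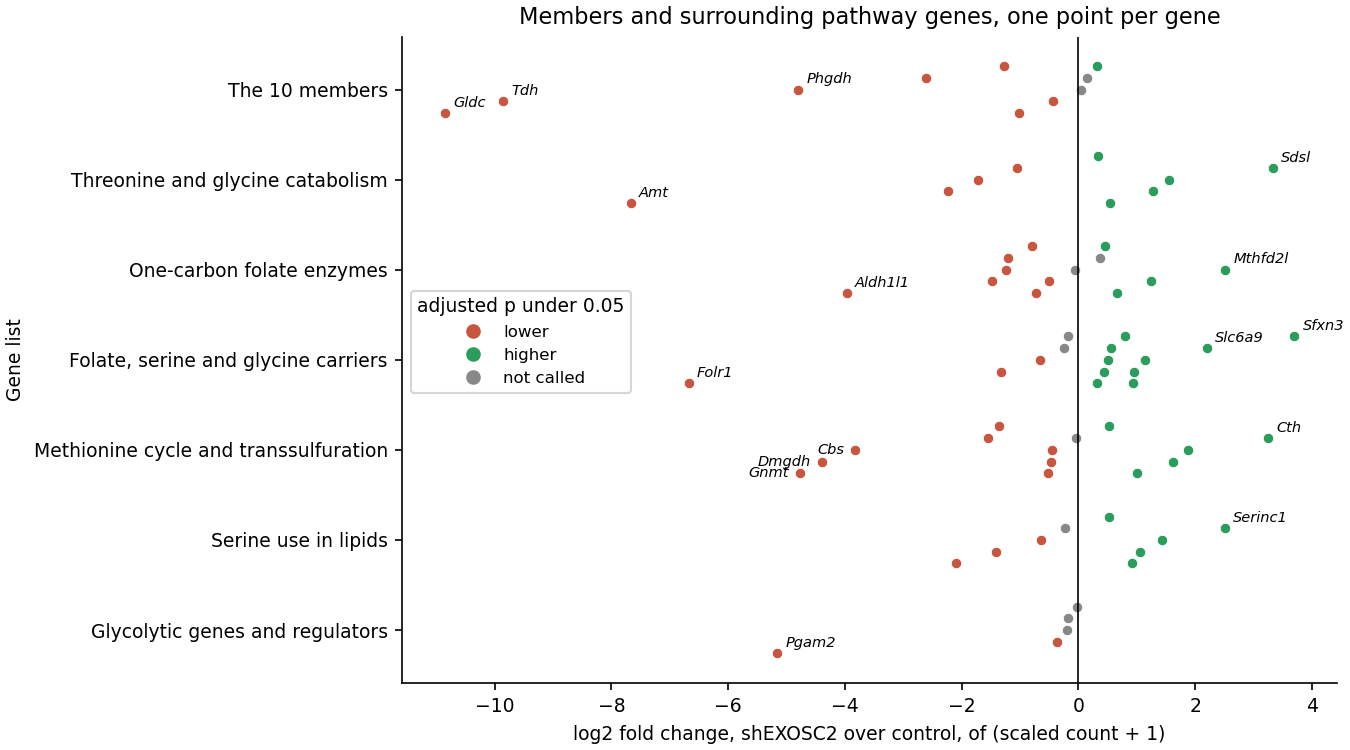
Log2 fold change, clones over controls, of the 10 genes and of 65 surrounding pathway genes by list, one point per gene, coloured by call, with genes beyond -3 or 2 named. Amt, at -7.67, and Folr1, at -6.68, are the surrounding genes lowest on the axis.

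Genes with the profile closest to each of the 10 were found among 12393 other genes with a mean of at least 50, by the root mean square difference of log2 profiles centred on their means over the 6 libraries. For Tdh these were Kcnk1 (0.23), Bex2 (0.23) and Nphs1 (0.28), all with no read in any clone. For Gldc they were Bex1 (0.30), Triml2 (0.31) and Ap1m2 (0.31). Phgdh was closest to Ppp1r1a (0.12), Cpsf4l (0.15) and Gm15772 (0.16), and Shmt1 to Cdca7 (0.08), Acat2 (0.11) and Phyh (0.13). Shmt2 and Psph, which did not differ between groups beyond their spread, lay within 0.02 of Rpl19 and Aurkaip1. These distances describe 6 libraries in 2 groups and are mostly set by the size of the group difference.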

How the data were processed

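The deposited table holds 1 signal per gene and library: read counts per gene divided by a size factor, per the file headers and the submitters' processing notes, which list, without settings, DESeq 1.22.1, HTSeq 0.5.3, STAR 2.5.0a, cutadapt 1.6 and build mm10. Libraries were TruSeq Stranded mRNA after poly(A) selection, per the labels' protocols. Within each library 100% of values were whole multiples of 1 step within 0.001 read, so reads were recovered and used for counting intervals and for edgeR and DESeq2.

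Groups came from sample titles. limma 3.58.1 (lmFit, eBayes with trend) was fitted to log2(value + 1) of genes whose mean over all libraries reached 10. The code was also run on simulated data in which few genes changed. Most genes were called in the real libraries, so that run cannot show how the fit behaves on them. Alternatives were pseudocounts of 0.5 and 5, no filter or a mean of at least 50, TMM, quantile normalization, eBayes without trend or with robust estimation, edgeR 4.0.16, DESeq2 1.42.0, subtraction of chromosome medians, and leaving out each library. Positions and exon lengths are from GENCODE M21 (GRCm38, the assembly of mm10), which 99.7% of genes matched.

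The 10 genes and all lists were chosen with earlier results of these data known. Named were the 10, Exosc2, all genes of the lists of threonine and glycine catabolism and of folate enzymes, the 3 called genes with the largest change and a mean of at least 50 in each other list, and the 3 genes closest in profile to each of the 10. Not every one is described, and some are not reported here. Pgam1, Pgam2 and the marker genes given with values were named outside this rule, after their values were seen. Of 3 blood and 3 endothelial markers tested, 1 each was higher and 1 each lower in the clones.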

Additional observations from a re-analysis of the deposited data

How the results depend on the processing

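The 7 falls among the 10 genes passed under every alternative run, with edgeR and DESeq2 included. The 1 rise, Mthfd1l, did not pass with quantile normalization, eBayes without trend or chromosome medians subtracted, so 0 of the 10 were then called higher, and leaving out single libraries gave 0 to 1. Shmt2 and Psph passed under none, and their small estimates changed sign: Shmt2 with quantile normalization (-0.12), with chromosome medians subtracted (-0.14) and without control replicate 1 or 3 or clone 6, and Psph with quantile normalization (-0.066), with chromosome medians subtracted (-0.15) and without control replicate 3. Aldh1l2 changed sign with quantile normalization (0.41) and without control replicate 3 or clone 6. Without single libraries the log2 fold change ranged from -0.026 to 0.18 for Shmt2, from -0.0083 to 0.30 for Psph and from -0.30 to 0.37 for Aldh1l2. Of the 9 ratios, 2 moved by more than the spread between libraries with the pseudocount, Tdh/Gcat to -7.22 with 5, and Gldc/Amt to -3.49 with 0.5 and -2.15 with 5. The causes were not tested.

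Genes called over the whole table numbered 10216 to 11379 without single libraries. Rises and falls in the list of surrounding genes then numbered 24 to 28 and 23 to 26. No paired analysis was possible because the labels link no control replicate to a clone. The reads limit the levels of Gldc and Tdh in the clones, 4 and 35 reads in all.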

Other observations

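Genes that use serine for lipids were also measured in these libraries. Of 9 tested, 5 were higher in the clones, 3 lower and 1 not called, with a median log2 fold change of 0.52. Sptlc2, a subunit of the enzyme that joins serine to palmitoyl-CoA for sphingolipid synthesis, rose from 1733 ± 220 to 4626 ± 49.1 (log2 fold change 1.42). Serinc1 rose from 2074 ± 463 to 11615 ± 53.7, and its family member Serinc2 fell from 208 ± 89.9 to 46.0 ± 11.6. Atf4, a transcription factor known to act on serine synthesis genes, measured 6894 ± 1247 in controls and 5269 ± 176 in clones. Its log2 fold change of -0.37 passed in limma (adjusted p = 0.039) but not with eBayes without trend (-0.37), nor without control replicate 1 or 2 (-0.29 and -0.29) or clone 5, 6 or 7 (-0.37, -0.35 and -0.40). It belongs to a list of 5 glycolytic genes and regulators with a median of -0.20. The other gene called there, the muscle mutase gene Pgam2, was lower in clones (57.6 ± 20.5 and 0.650 ± 0.565) and is named after its values were seen, its mean being under 50.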
